A study of Homo sapiens with 16 samples.

Results

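EGF receptors and ligands were followed through the acquisition of gemcitabine resistance in T24 cells. The set held 10 genes, chosen by symbol from the 39007 gene symbols of the deposited table: the receptors EGFR, ERBB2 and ERBB3, and the ligands AREG, EREG, HBEGF, TGFA, BTC, EPGN and NRG1. T24 is an established human bladder cancer cell line, and gemcitabine is a cytidine analog that blocks DNA synthesis. The GRC1 line was derived from parental T24 cells by repeated exposures to 1.5 µM gemcitabine for 72 h, and RNA was sequenced from 4 libraries of the parental cells (phase P0) and 4 each after early (P3), intermediate (P7) and late (P15) phases of selection. All 16 libraries came from T24 cells or their descendants, grown in the same serum-containing medium. Their titles all carry the letters NT, which the study's text does not explain. Its methods do not state whether gemcitabine was present when RNA was taken. GRC1 is a single line of several that were selected, and nothing in the labels says that the 4 libraries of a phase were separate cultures, so p-values measure the spread between these libraries, which may be technical. Selection by the drug and time in culture cannot be told apart, because no untreated cells of the same age were sequenced among these libraries. The titles also carry S numbers, some of which recur in another phase, and their meaning is not given. No batch is named in the labels or the study's methods, so a batch that differed between phases could not be told apart from phase.

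The ERBB receptors are tyrosine kinases at the cell surface that signal as pairs. EGFR binds AREG, EREG, HBEGF, TGFA, BTC and EPGN. ERBB2 has no known soluble ligand and serves as a partner for the other receptors, while ERBB3 binds neuregulins such as NRG1 and relies on its partner for most of its kinase activity. The ligands are made as membrane-anchored precursors that metalloproteases release, and paired receptors drive the RAS-ERK and PI3K pathways. In the urothelium this system is known for its part in growth and repair, and T24 cells are known to carry an activated HRAS, which acts below these receptors.

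Values were log2 of CPM plus 1, where CPM is the count of a gene scaled to the total of its library. The smallest steps between low values put 1 count at 0.02 to 0.0295 CPM, which corresponds to depths of 33.85 to 50 M counts. Pearson correlations across genes between libraries of the same phase were 0.9965 to 0.9984. The cells were checked against marker lists. Of 14 urothelial or epithelial markers, 6 to 7 had a phase mean above 1 CPM. The summed level of the 14 was 2177.48 to 2251.36 CPM at P0 and higher at P3, at 2418.57 to 2553.32 CPM. It was 1774.62 to 1921.21 CPM at P7 and fell to between 694.6 and 772.42 CPM at P15. The keratins KRT7 (956.63 to 11.5 CPM), KRT8 (593.32 to 70.28 CPM) and KRT19 (85.12 to 0.01 CPM) were lower at P15 than at P0, KRT18 was higher (471.05 to 633.23 CPM), and UPK1A went from 0.07 to 1.98 CPM. KRT20, UPK1B, UPK3A, KRT5 and CDH1 stayed at or near 0 in every phase. Summed markers of leukocytes (5 genes) reached at most 8.5 CPM and of endothelium (4 genes) 7.95 CPM. Those of fibroblasts (5 genes) reached 28.77 CPM, at P15. Most of these sums came from CD14 (6.81 CPM at P0), CDH5 (5.69 CPM at P0) and COL1A1 (5.01 CPM at P0 and 23.97 CPM at P15). PDGFRB had 2.77 CPM at P0 and 2.38 CPM at P15, and PTPRC, CD3E and DCN were at or near 0. The part of these shifts in the results below was not tested, and in such bulk samples fewer cells of a type and less RNA per cell cannot be told apart.

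A total of 4 of the 7 ligand genes lie side by side on chromosome 4 (GENCODE version 44 on GRCh38). EPGN spans chr4:74308470-74316789, EREG chr4:74365145-74388749 and AREG chr4:74445136-74455005, all on the forward strand, and BTC spans chr4:74744759-74794523 on the reverse strand. Their promoter windows, 250 bases before to 50 bases after the start of transcription (RefSeq, GRCh38.p14), are shown because these neighbours took different courses over the phases. Capitals mark matches on either strand. The letters searched for a TATA box were TATAAA. An AP-1 motif was searched as TGANTCA, where N is any base. A cyclic AMP response element was searched as TGACGTCA.
EPGN, chr4:74308220-74308519, forward strand: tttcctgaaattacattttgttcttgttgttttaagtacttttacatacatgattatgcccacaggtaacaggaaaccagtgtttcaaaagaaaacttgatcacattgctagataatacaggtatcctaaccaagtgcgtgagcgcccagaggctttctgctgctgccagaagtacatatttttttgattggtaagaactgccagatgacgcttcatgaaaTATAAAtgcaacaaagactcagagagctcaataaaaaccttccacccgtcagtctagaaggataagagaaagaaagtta
EREG, chr4:74364895-74365194, forward strand: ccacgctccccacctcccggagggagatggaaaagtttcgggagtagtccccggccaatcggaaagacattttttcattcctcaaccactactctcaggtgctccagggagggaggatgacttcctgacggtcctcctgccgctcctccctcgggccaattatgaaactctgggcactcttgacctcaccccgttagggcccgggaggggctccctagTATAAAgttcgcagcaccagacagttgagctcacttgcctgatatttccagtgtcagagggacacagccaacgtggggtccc
AREG, chr4:74444886-74445185, forward strand: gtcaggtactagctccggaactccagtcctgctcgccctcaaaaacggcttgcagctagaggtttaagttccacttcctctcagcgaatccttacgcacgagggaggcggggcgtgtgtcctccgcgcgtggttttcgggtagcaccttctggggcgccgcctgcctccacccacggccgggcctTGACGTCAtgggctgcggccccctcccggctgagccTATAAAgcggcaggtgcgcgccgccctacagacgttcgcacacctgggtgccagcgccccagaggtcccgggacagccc
BTC, chr4:74794474-74794773, reverse strand: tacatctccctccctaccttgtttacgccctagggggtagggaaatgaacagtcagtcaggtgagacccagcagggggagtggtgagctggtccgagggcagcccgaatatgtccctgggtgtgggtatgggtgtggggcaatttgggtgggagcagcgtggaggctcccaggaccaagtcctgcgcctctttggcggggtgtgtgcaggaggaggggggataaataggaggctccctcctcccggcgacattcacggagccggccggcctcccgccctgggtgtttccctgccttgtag
The TATAAA match began at position -29 in EPGN, -32 in EREG and -29 in AREG, counted from the start of transcription, and 11.5% of 35116 promoter windows of the same length held these letters anywhere. The window of BTC held none of these motifs. AREG also held TGACGTCA at position -65, a match found in 1.8% of windows. TGANTCA, found in 7.7% of windows, was in none of these 4. GC content was 37.7% in EPGN, 57.7% in EREG, 66.3% in AREG and 63.0% in BTC, beside a median of 58.7% over all windows. A window was found for 8 of the 10 genes, and ERBB3 and NRG1 had none.

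Each of the 10 genes averaged more than 1 CPM and entered the test, a moderated linear model (limma) with Benjamini-Hochberg adjustment over the 13249 genes past that filter. EPGN passed the filter only through P15, so its difference there was bound to be large, and counts are also given without it. A gene is said to have risen or fallen where its adjusted p was below 0.05, and a 2-fold call needs in addition a log2 difference of at least 1. The SD of the log2 values within a phase ranged from 0.01 to 0.20 over the 10 genes, with a median of 0.07, the same median as over all tested genes. The highest phase mean was at P15 for EGFR, ERBB3, AREG, EPGN and NRG1, at P3 for HBEGF and TGFA, at P0 for EREG and BTC, and at P7 for ERBB2. Over all tested genes 43.5% were highest at P15.

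**Figure D1:**
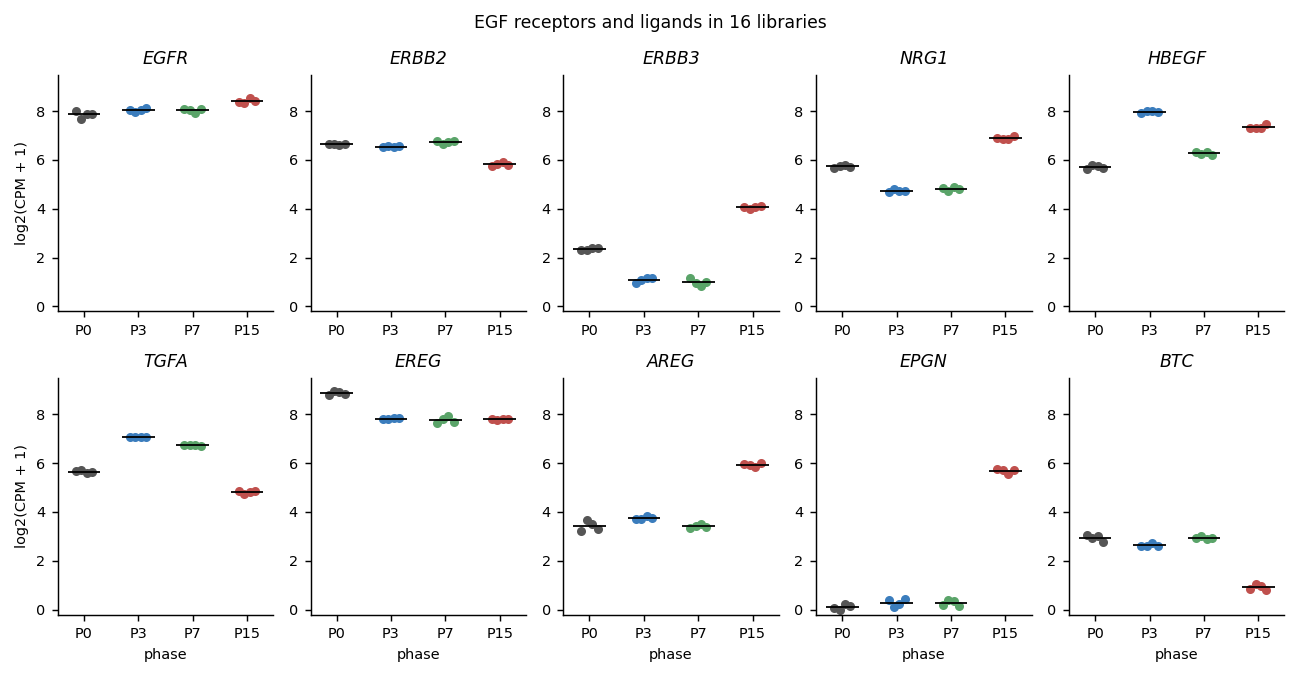
Level of each gene in each library, as log2(CPM + 1) on the vertical axis, by phase on the horizontal axis (4 libraries per phase, points). Black lines are phase means. The points of EPGN lie at 0.44 or below in P0, P3 and P7 and at 5.57 or above in P15, while those of EGFR stay between 7.68 and 8.55.

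EGFR, the main receptor for most of these ligands, rose modestly and was highest at P15. Its log2 values were 7.99, 7.68, 7.89 and 7.90 at P0, 8.06, 7.97, 8.03 and 8.12 at P3, 8.08, 8.04, 7.94 and 8.09 at P7, and 8.37, 8.32, 8.55 and 8.41 at P15. All P15 libraries were above all others, and P3 and P7 overlapped with P0. Against P0, EGFR nevertheless rose by 0.18 at P3 (SE 0.05, limma adjusted p = 0.0048) and by 0.17 at P7 (SE 0.05, adjusted p = 0.0074). The log2 difference of P15 from P0 was 0.55 (SE 0.05, limma adjusted p = 1.1e-09), and from P7 0.38 (SE 0.05, adjusted p = 6.1e-07). The difference between P7 and P3 did not pass the test (-0.01, SE 0.05, adjusted p = 0.92).

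ERBB2, the partner receptor, fell at the last step. Its values lay between 6.61 and 6.67 at P0, between 6.52 and 6.56 at P3 and between 6.66 and 6.79 at P7, against 5.75, 5.85, 5.93 and 5.80 at P15. P15 stood below every other library, with a difference of -0.91 from P7 (SE 0.04, limma adjusted p = 5.9e-17) and -0.81 from P0 (SE 0.04, adjusted p = 6.2e-16). ERBB2 rose by 0.19 at P7 against P3 (SE 0.04, adjusted p = 0.00014), without overlap of the libraries, and this step kept the threshold in every alternative run. The smaller differences from P0, -0.10 at P3 (adjusted p = 0.027) and 0.09 at P7 (adjusted p = 0.034), lost it in several of the alternative fits. Exons of ERBB2 share 571 bases with MIEN1 and 144 bases with PGAP3 on the opposite strand, and the strand setting of the counting was not given in the sources used here, so reads there cannot be assigned with certainty. MIEN1 fell at P15 against P0 (-0.85, adjusted p = 1e-10) and PGAP3 rose (0.86, adjusted p = 2.4e-09).

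ERBB3, the neuregulin receptor, fell early and then exceeded its parental level. Its values were 2.33, 2.32, 2.41 and 2.40 at P0, 0.97, 1.08, 1.18 and 1.16 at P3, 1.16, 0.97, 0.85 and 1.00 at P7, and 4.07, 4.01, 4.09 and 4.10 at P15. In estimated counts, the 4 libraries together held 600 at P0, 175 at P3, 162 at P7 and 2579 at P15. P3 and P7 overlapped, and each of the other phases stood clear of the rest. ERBB3 fell by 1.27 at P3 against P0 (SE 0.08, limma adjusted p = 1.2e-12) and rose by 3.07 at P15 against P7 (SE 0.08, adjusted p = 3.9e-21), which left it 1.70 above P0 (SE 0.08, adjusted p = 6.7e-16). Because the gene is low, these sizes depend on the pseudocount, and over the alternatives the fall at P3 ranged from -1.78 to -0.58 and the step from P7 to P15 from 1.79 to 3.87.

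NRG1, the neuregulin ligand of ERBB3, was ordered over the phases much as ERBB3 was, lowest at P3 and P7 and highest at P15. Its values were 5.67, 5.77, 5.80 and 5.70 at P0, 4.67, 4.82, 4.75 and 4.71 at P3, 4.85, 4.75, 4.91 and 4.80 at P7, and 6.90, 6.85, 6.84 and 7.00 at P15. No library of P15 or P0 overlapped with another phase, whereas P3 and P7 did overlap. NRG1 fell by 1.00 at P3 against P0 (SE 0.05, limma adjusted p = 4.4e-15), just short of a 2-fold call before rounding, and rose by 2.07 at P15 against P7 (SE 0.05, adjusted p = 2.3e-22). It ended 1.16 above P0 (SE 0.05, adjusted p = 2.9e-17). NRG1 covers a long span on chromosome 8 (chr8:31639222-32855666), and its transcript forms cannot be told apart in a table by gene.

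HBEGF, the heparin-binding ligand, moved at every step, up, down and up again. Its values were 5.62, 5.78, 5.77 and 5.69 at P0, 7.93, 8.0, 8.02 and 7.97 at P3, 6.32, 6.24, 6.31 and 6.22 at P7, and 7.30, 7.33, 7.30 and 7.46 at P15. No 2 phases overlapped. The steps were 2.27 at P3 against P0 (SE 0.04, limma adjusted p = 1.2e-22), -1.71 at P7 against P3 (SE 0.04, adjusted p = 3.2e-20) and 1.07 at P15 against P7 (SE 0.04, adjusted p = 8.3e-18). P15 remained below P3 (-0.63, SE 0.04, adjusted p = 3.6e-13).

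TGFA, a classical EGFR ligand, rose with HBEGF at P3 but ended below its parental level. Its values were 5.67, 5.70, 5.59 and 5.64 at P0, 7.07, 7.07, 7.07 and 7.09 at P3, 6.73, 6.76, 6.75 and 6.71 at P7, and 4.84, 4.74, 4.81 and 4.86 at P15. The phases did not overlap. TGFA rose by 1.43 at P3 against P0 (SE 0.03, limma adjusted p = 1.7e-20), fell by 0.34 at P7 against P3 (SE 0.03, adjusted p = 1.6e-08) and fell by 1.93 at P15 against P7 (SE 0.03, adjusted p = 2.5e-24), so that it stood 0.84 lower than at P0 on the log2 scale (-0.84, SE 0.03, adjusted p = 5.2e-17).

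Among the 4 ligands of chromosome 4, EREG, which binds EGFR and ERBB4, changed once. Its values were 8.80, 8.97, 8.92 and 8.84 at P0, 7.81, 7.79, 7.86 and 7.84 at P3, 7.64, 7.80, 7.93 and 7.70 at P7, and 7.79, 7.76, 7.80 and 7.81 at P15. The parental libraries were above all the rest, and the later phases overlapped one another. EREG fell by 1.06 at P3 against P0 (SE 0.05, limma adjusted p = 8.2e-16). The differences of P7 from P3 (-0.06, adjusted p = 0.29), of P15 from P7 (0.02, adjusted p = 0.65) and of P15 from P3 (-0.03, adjusted p = 0.47) did not pass, with SEs of 0.05.

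AREG, the neighbour of EREG, rose late. Its values were 3.23, 3.67, 3.49 and 3.29 at P0, 3.72, 3.71, 3.85 and 3.74 at P3, 3.34, 3.44, 3.51 and 3.39 at P7, and 5.97, 5.92, 5.85 and 6.01 at P15. P15 stood far above the other phases, and P3 stood slightly above P0 and P7, which overlapped. The rise at P15 against P7 was 2.52 (SE 0.07, limma adjusted p = 5.6e-20), after a rise of 0.34 at P3 against P0 (SE 0.07, adjusted p = 0.00039) and a fall of the same size at P7 against P3 (-0.34, SE 0.07, adjusted p = 0.00052).

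EPGN, a low-affinity EGFR ligand, was close to undetected until P15. Its values were 0.07, 0.00, 0.23 and 0.15 at P0, 0.40, 0.10, 0.23 and 0.44 at P3, 0.21, 0.40, 0.36 and 0.17 at P7, and 5.78, 5.71, 5.57 and 5.72 at P15. In estimated counts this was 12 over the 4 libraries of P0, 34 at P3, 37 at P7 and 8346 at P15. One parental library was listed at 0, which allows up to 0.0824 CPM by a floor of 3 counts, a limit that covers counting error only. The mean level was 50.9 CPM at P15 (SD 3.13, n = 4) against 0.221 CPM at P7 (SD 0.095, n = 4). The fitted difference of P15 from P7 was 5.41 on the log2(CPM + 1) scale (SE 0.09, limma adjusted p = 1.2e-24), and it ranged from 3.42 to 7.36 over the alternatives, so the size of the fold is set by the pseudocount. The differences among P0, P3 and P7 did not pass the test (adjusted p = 0.093 for P3 against P0).

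BTC, a ligand of EGFR and ERBB4, fell at the step where EPGN and AREG rose. Its values were 3.04, 2.95, 3.00 and 2.76 at P0, 2.6, 2.61, 2.75 and 2.59 at P3, 2.92, 3.00, 2.90 and 2.92 at P7, and 0.83, 1.04, 0.96 and 0.81 at P15. P15 was below all other libraries, and P3 was below P0 and P7, which overlapped. The fall at P15 against P7 was 2.02 on the log2 scale (-2.02, SE 0.08, limma adjusted p = 2e-17), or 144 estimated counts over the P15 libraries against 1081 at P7. Over the alternatives this difference ranged from -2.79 to -0.99, the last, with a pseudocount of 5, just short of a 2-fold call. The earlier steps were -0.30 (SE 0.08, adjusted p = 0.0021) and 0.30 (SE 0.08, adjusted p = 0.0029).

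The steps were then set beside all tested genes. At P3 against P0, 9 of the 10 genes passed (4 higher, 5 lower), beside 68.7% of all tested genes, and 4 were 2-fold calls (HBEGF and TGFA higher, ERBB3 and EREG lower), beside 4.47%. At P7 against P3, 5 passed, beside 58.2%, and HBEGF alone was a 2-fold call, beside 1.84%. At P15 against P7, 9 passed, beside 86.4%, and 7 were 2-fold calls (5 higher, 2 lower), beside 25.5%. Without EPGN the last counts were 8 and 6 of 9. The median absolute log2 difference was 0.67 over the 10 genes against 0.23 over all genes at the first step. It was 0.15 against 0.17 at the second and 1.98 against 0.55 at the third, where it was 1.92 without EPGN.

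Against the parental cells, all 10 genes passed at P15 (6 higher, 4 lower), beside 86.2% of tested genes. Of these, EPGN, AREG, ERBB3, HBEGF and NRG1 were 2-fold higher and BTC and EREG 2-fold lower, 7 calls beside 23.6%, and without EPGN 6 of 9. The median absolute difference was 1.40 beside 0.51, and 1.16 without EPGN. At P7 against P0, 7 of the 10 passed, beside 62.1%. At P15 against P3, 9 passed, beside 87.2%, and without EPGN 8 of 9. These comparisons share libraries with the steps above. Passing the test was common in this series, so the counts of passed genes are near the share of all genes.

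**Figure D2:**
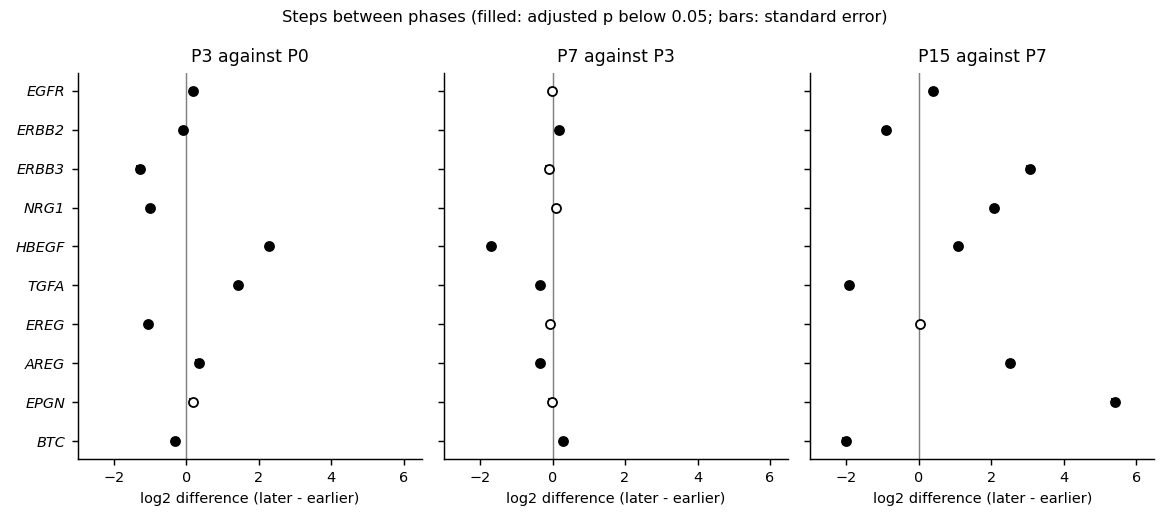
Log2 difference of the later from the earlier phase for each gene (horizontal axis, log2(CPM + 1) scale) at each of the 3 steps, with the limma standard error as a bar, which is mostly smaller than the point. Filled points had an adjusted p below 0.05. HBEGF lies at 2.27, -1.71 and 1.07 in turn, and EPGN at 5.41 in the last step.

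To compare levels between genes, CPM was divided by the length of the Ensembl canonical transcript in kilobases. The summed level of the 3 receptors was 46.0 CPM per kb at P0 (SD 2.12, n = 4) and 49.5 at P15 (SD 2.96, n = 4), while its makeup shifted. EGFR took 51.0% of the sum at P0 (SD 2.3, n = 4) and 69.4% at P15 (SD 1.0, n = 4), and ERBB2 47.4% and 24.9%. At P0 the libraries of EGFR and ERBB2 overlapped in level, and at P3, P7 and P15 EGFR was above ERBB2 in every library. ERBB3 made up 1.6% at P0, 0.4% at P3 and P7, and 5.7% at P15. With the length of all annotated exons instead, the share of EGFR was 59.4% at P0 and 75.9% at P15.

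The summed level of the 7 ligands was 151 CPM per kb at P0 (SD 8.0, n = 4), 202 at P3 (SD 3.96, n = 4), 118 at P7 (SD 5.30, n = 4) and 201 at P15 (SD 7.21, n = 4). EREG was the leading ligand at P0, with 67.7% of the sum, before HBEGF with 14.5%, TGFA with 7.9% and AREG with 5.2%. At P3 HBEGF led with 52.7%, followed by EREG with 24.2% and TGFA with 16.1%. EREG led again at P7 with 39.9%, before HBEGF with 27.5% and TGFA with 21.8%. At P15 HBEGF took 34.2%, AREG 24.3%, EREG 23.8%, EPGN 9.4%, NRG1 4.9% and TGFA 3.3%, and BTC 0.2%. AREG and EREG were not separable there, since their libraries overlapped. With the length of all annotated exons instead, the P15 shares were 24.7% for EREG, 23.5% for AREG, and 3.5% each for NRG1 and TGFA. The leading ligand of each phase stayed the same, EREG at P0 (68.3%) and P7 (40.1%) and HBEGF at P3 (52.0%) and P15 (34.7%).

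**Figure D3:**
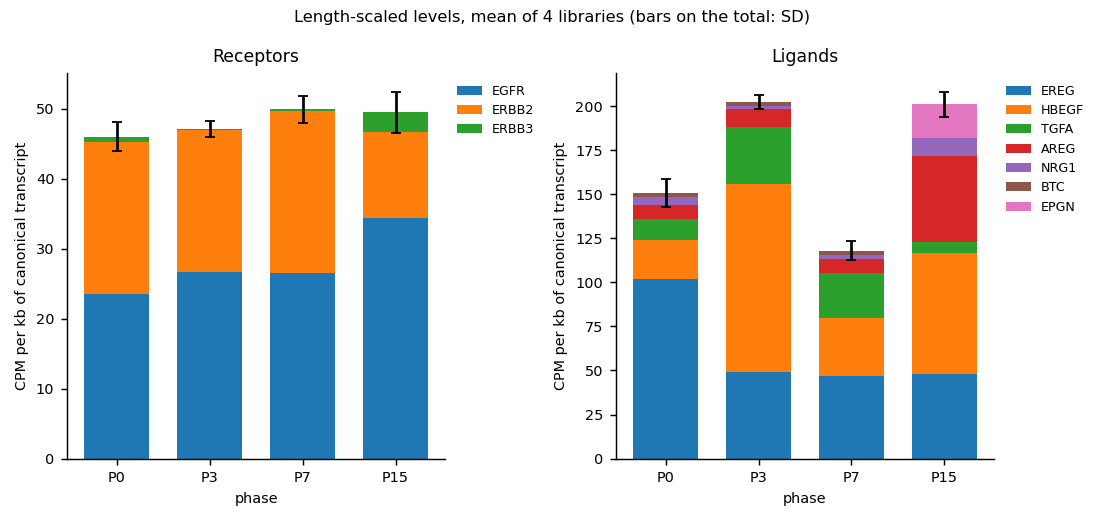
Stacked mean levels in CPM per kb of canonical transcript (vertical axis, from 0) by phase, for the 3 receptors (left) and the 7 ligands (right). Error bars are the SD of the summed level over 4 libraries. The receptor sum stays between 46.0 and 49.9, and the ligand sum between 118 and 202 with a different leading ligand at P0 and P3.

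Of the other family members, EGF, ERBB4, NRG3 and NRG4 had means below 1 CPM and were not tested. ERBB4, the second neuregulin receptor, reached its highest phase mean at P15 (0.816 CPM, SD 0.064, n = 4), against 0.126 to 0.224 CPM in the earlier phases, and NRG3 was at 0 in all libraries. NRG2 fell by 0.39 at P15 against P0 (SE 0.07, limma adjusted p = 1.5e-05).

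The 4 ligands of chromosome 4 lie beside a run of CXC chemokine genes. Of 15 genes of this region, which include the 4 ligands, 12 were tested. At P15 against P0, 7 rose and 4 fell (58.3% and 33.3%, beside 45.3% and 40.9% of all tested genes). The median log2 difference was 1.24, but without EPGN it was 0.38 over the other 11 genes, beside a median of 0.04 over all tested genes. Of these 11, which still include EREG, AREG and BTC, 6 rose and 4 fell. Apart from EPGN (5.58), which entered the test only through P15, CXCL2 (3.08, SE 0.10, limma adjusted p = 2.4e-19) and CXCL3 (3.07, SE 0.07, adjusted p = 3.4e-22), both neutrophil chemokines and not separable in size, rose most, and CXCL5 (-6.11, SE 0.06, adjusted p = 9.8e-30), another, and BTC (-2.03) fell most. The chemokine genes have similar sequences, and reads shared between them would make their values uncertain. MTHFD2L, a mitochondrial folate enzyme and the nearest gene before EPGN, stood at 3.28 in P0 and 2.92 in P7 and rose to 5.38 at P15 (2.45 against P7, adjusted p = 1.6e-16), and no exon of it overlaps with EPGN in the annotation. EREG, between the risen EPGN and AREG, did not pass at that step. PARM1, beyond BTC, was 1.09 higher at P3 than at P0 (adjusted p = 7.2e-13) and 0.67 lower at P15 than at P7 on the log2 scale (-0.67, adjusted p = 1.5e-09).

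**Figure D4:**
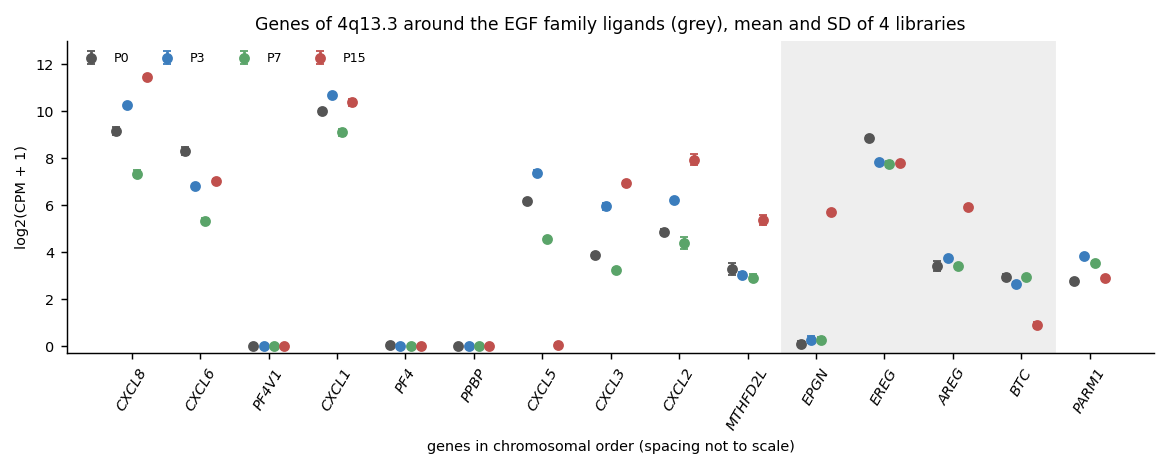
Phase means of log2(CPM + 1) with the SD of 4 libraries (vertical axis) for genes of the region in chromosomal order (horizontal axis, not to scale), with the 4 EGF family ligands on grey. At P15 EPGN is at 5.70 and AREG at 5.94, EREG stays at 7.79, and BTC is at 0.91.

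Around the other genes, the nearest tested neighbours rose, fell or did not pass. At P15 against P0, SEC61G (-0.55, limma adjusted p = 1.6e-07) and LANCL2 (-0.67, adjusted p = 1.2e-09) fell on either side of EGFR, which rose by 0.55. RPS26 fell by 0.25 (adjusted p = 2.1e-06) and PA2G4 did not pass (-0.01, adjusted p = 0.84) beside ERBB3. PFDN1 did not pass (0.04, adjusted p = 0.23) and ANKHD1 rose by 0.69 (adjusted p = 4.1e-05) beside HBEGF. FAM136A (-0.30, adjusted p = 2.8e-08) and TEX261 (-1.03, adjusted p = 8.8e-18) fell as TGFA did. WRN did not pass (-0.04, adjusted p = 0.55) and FUT10 rose by 0.26 (adjusted p = 0.0018) beside NRG1.

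Genes that release and traffic the ligands changed in both directions between P0 and P15. Of 10 tested, 3 rose and 7 fell (30% and 70%, beside 45.3% and 40.9% of all tested genes), with a median log2 difference of -0.44 beside 0.04 over all genes. ADAM17, a protease that sheds several but not all of these ligands, rose by 1.01 (SE 0.04, limma adjusted p = 1.2e-17), from 5.75 to 6.76. NRDC, which enhances shedding of HBEGF, rose by 0.90 (SE 0.03, adjusted p = 4.7e-19). TIMP3, an inhibitor of ADAM17, fell by 4.74 (SE 0.06, adjusted p = 6.6e-27), from 5.36 at P0 and 5.67 at P7 to 0.61 at P15, and FRMD8, which stabilises the complex of ADAM17 with its carriers, fell by 1.74 (SE 0.04, adjusted p = 3.1e-22). At P3 against P0, where HBEGF and TGFA rose, 2 of the 10 rose and 6 fell (over all tested genes 31.4% rose and 37.3% fell), and ADAM17 did not pass (difference 0.00, adjusted p = 1). The 2 that rose were ADAM12 (1.33, SE 0.04, limma adjusted p = 4.3e-18) and FRMD8 (0.22, SE 0.04, adjusted p = 2.6e-05). TIMP3 was among the 6 that fell (-0.82, SE 0.06, adjusted p = 5.3e-11). ADAM12 later fell by 2.69 at P15 against P7 (SE 0.04, adjusted p = 2.8e-25). A link of these genes to the ligands was not tested.

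Of 25 adaptors and proximal effectors tested at P15 against P0, 18 fell and 6 rose (72% and 24%, beside 40.9% and 45.3% of all tested genes), with a median of -0.28. GRB7 passed the filter only through P15 (0.801 CPM over the other 12 libraries), so its difference was bound to be large, and without it 18 of 24 fell and 5 rose. GRB7, an adaptor that binds ERBB2 and ERBB3, rose by 2.69 (SE 0.10, limma adjusted p = 4.6e-18), from 1.51 at P0 and 0.24 at P7 to 4.20, and PLCG2, a phospholipase, rose by 1.54 (SE 0.07, adjusted p = 1.3e-16). STAT5A, a transcription factor, fell by 2.98 (SE 0.07, adjusted p = 1.2e-22), and SHC3, an adaptor, fell by 2.91 (SE 0.08, adjusted p = 1.1e-20). At P3 against P0, 7 of the 25 rose and 11 fell, 28% and 44%, near the shares of all genes.

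Of 21 inhibitors of the receptors and genes of their ubiquitination and endocytosis tested at P15 against P0, 13 rose and 7 fell (61.9% and 33.3%, beside 45.3% and 40.9% of all tested genes), with a median of 0.31. ERRFI1, a feedback inhibitor of the EGFR kinase, rose by 2.27 (SE 0.03, limma adjusted p = 4.9e-26), from 8.44 to 10.71, and CBLB, a ubiquitin ligase, by 1.07 (SE 0.11, adjusted p = 1.6e-09). PTPRJ, a receptor phosphatase, fell by 3.20 (SE 0.04, adjusted p = 1.5e-27), and LRIG1, a negative regulator of ERBB receptors, fell by 1.53 (SE 0.08, adjusted p = 4.1e-15). At P3 against P0, 4 rose and 8 fell (19.0% and 38.1%, beside 31.4% and 37.3%).

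Among immediate targets and feedback genes of ERK, more rose than fell at P3 against P0 and at P15 against P7. More fell than rose at P7 against P3. The ligands took different courses over these steps, and a link to any of them was not tested. At P3 against P0, 10 of 15 rose and 2 fell (over all tested genes 31.4% rose and 37.3% fell), with a median of 0.42 beside -0.02. At P7 against P3, 4 rose and 7 fell (26.7% and 46.7%, beside 30.3% and 28.0%), with a median of -0.11 beside 0.01. At P15 against P7, 10 rose and 4 fell (66.7% and 26.7%, beside 46.3% and 40.1%), with a median of 0.48 beside 0.05. Of the 15, 10 rose and 4 fell at P15 against P0 (beside 45.3% and 40.9%), with a median of 0.66. SPRY1, a feedback inhibitor, passed the filter only through P15 (0.687 CPM over the other 12 libraries), and without it the P15 counts were 9 and 4 of 14 against both P7 and P0. EGR1, an immediate early transcription factor, had means of 2.39, 5.63, 3.36 and 7.70 from P0 to P15, with an SD of 0.48 at P0 and 0.47 at P15 (n = 4), and its difference of P15 from P0 was 5.31 (SE 0.21, limma adjusted p = 1.6e-17). IER3, another early response gene, rose by 3.06 (SE 0.06, adjusted p = 4e-24). DUSP4, an ERK phosphatase, fell by 1.94 (SE 0.04, adjusted p = 3.3e-23), and SPRED1, an inhibitor of RAS signaling, fell by 1.10 (SE 0.04, adjusted p = 1.3e-18).

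**Figure D5:**
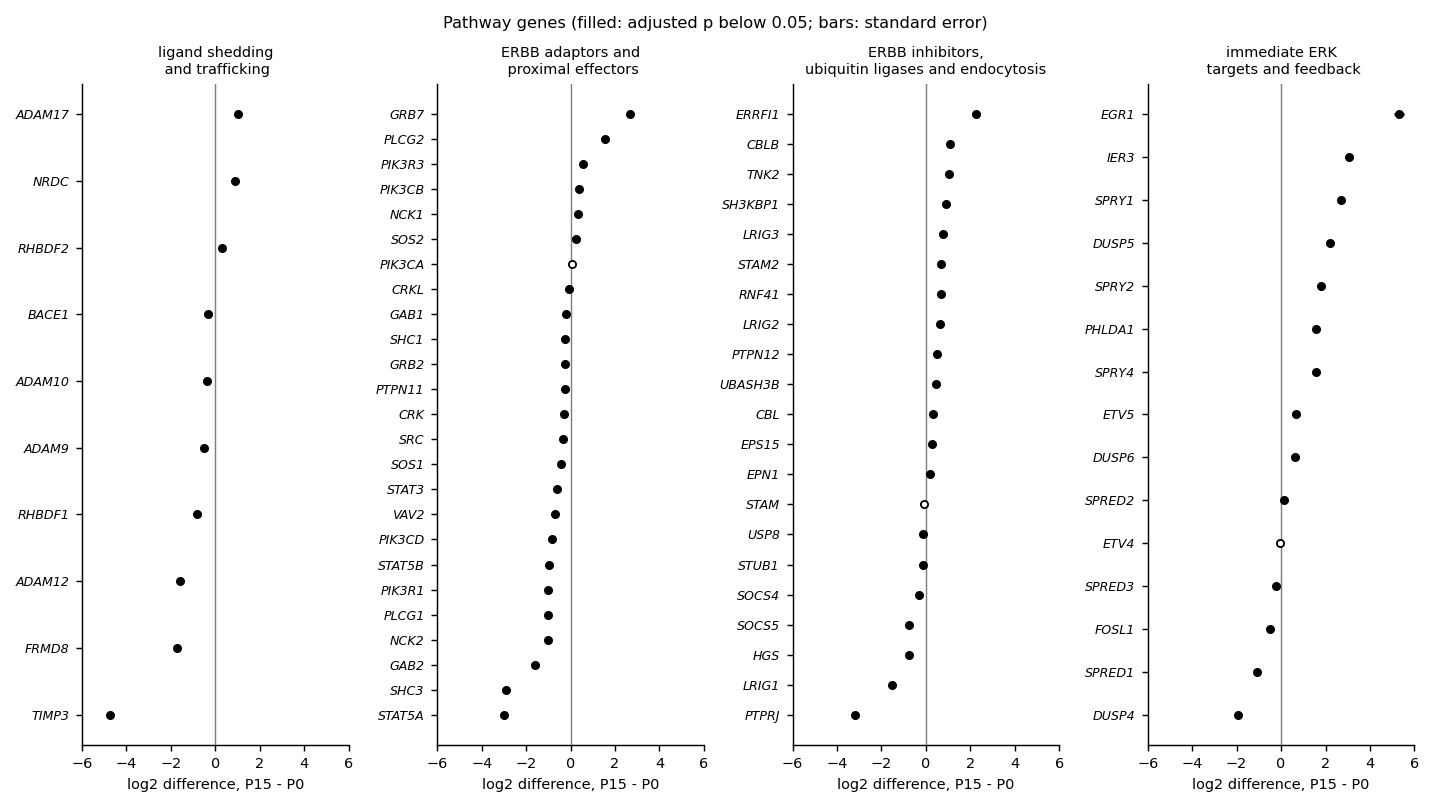
Log2 difference of P15 from P0 (horizontal axis, log2(CPM + 1) scale) for the tested genes of the pathway lists, with the limma standard error as a bar, mostly hidden by the point. Filled points had an adjusted p below 0.05. ADAM17 (1.01), GRB7 (2.69), ERRFI1 (2.27) and EGR1 (5.31) are the topmost of their lists, GRB7 and SPRY1 having passed the filter only through P15, and TIMP3 (-4.74) is the lowest of all.

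The genes whose values followed each of the 10 most closely were ranked by Pearson correlation over the 16 libraries, which share 4 phase levels, so these values describe likeness in pattern only. HBEGF was followed by DUSP1 (r = 0.993), a phosphatase of MAP kinases, SGK1 (0.988), a stress-responsive kinase, and KLF5 (0.984), a transcription factor, and 28 genes were above 0.95. DUSP1 had means of 5.63, 8.24, 6.36 and 7.45 from P0 to P15, close to those of HBEGF at 5.72, 7.98, 6.27 and 7.35. EREG was followed by RFLNA (0.993), MAGEB17 (0.989) and CDH5 (0.984), which were at 2.25 to 3.23 at P0 and at 0.28 or below later, and 24 genes were above 0.95. EGFR was followed by KANTR (0.976), FAT4 (0.969) and FAT1 (0.964), and 10 genes were above 0.95. Among the genes most like TGFA were CALU (0.996) and FSTL1 (0.996), with 270 genes above 0.95.

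For genes whose pattern is led by P15, many others ranked nearly as high. EPGN had 1319 genes above 0.95, led by GAGE1, SLITRK5 and EPS8L1 (0.999 each), and GAGE1 belongs to a family of near-identical copies, so its value is uncertain. BTC had 1120, led by TRIM22 (0.997), NTNG1 (0.996) and SNHG18 (0.995), and AREG had 1039, led by SELENOW (0.997), MICA (0.996) and DAW1 (0.996). ERBB2 had 943, led by CHPF2 (0.996), TRPC4AP (0.995) and STK10 (0.995). The 2 genes with a dip at P3 and P7 were ERBB3, followed by CAND2 (0.997), H1F0 (0.997) and PRMT1 (0.995) with 679 above 0.95, and NRG1, followed by the ribosomal protein genes RPL12 (0.998) and RPL7A (0.997) and by LPAR2 (0.997), with 680.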

How the data were processed

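Gene expression was measured by RNA sequencing in 16 libraries, grouped by the phase in the labels (P0, P3, P7 or P15, 4 libraries each). Per the study's methods and the submitters' processing notes, paired-end reads were aligned with STAR 2.6.1a to GRCh38 and counted with featureCounts. The deposited unit is log2(CPM + 1), given by the authors to 2 decimals. Quantile normalization and median centring are named in the methods as well, but these values carry neither. Strand setting and multi-mapping were not given in the sources used here.

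Differences between phases were fitted with limma 3.58.1 (R 4.3.3), using every library, a coefficient for each phase and a variance trend. Genes averaging more than 1 CPM were kept (13249), and p-values were adjusted over them by the Benjamini-Hochberg method. The fit was tested on simulated data. All 10 genes entered it, so the exact test planned for genes below the filter was not needed. Counts were estimated as CPM times the depth (33.85 to 50 M) inferred from the step between low values, and floors of 3 counts cover counting error only. Tables and figures used Python 3.11.15, numpy 2.4.6, pandas 2.3.3 and matplotlib 3.10.9. Coordinates and lengths are from GENCODE version 44, which matched 12071 tested symbols (91.1%), and is not known to be the annotation counted on. The genes and lists were chosen with earlier results of these data known. Named are all 10 genes, the 2 genes of each list with the largest rise and the 2 with the largest fall at P15 against P0, the nearest tested neighbours and the 3 genes most like each, except that some items are not reported here. Other filters, pseudocounts of 0.1 and 5, scalings, a replicate block, no variance trend, pairs of phases alone, no fold threshold and each library left out were tried.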

Additional observations from a re-analysis of the deposited data

Results flagged for a closer look

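Of 40 sets of 4 libraries (10 genes in 4 phases), 2 held a library that stood apart from the other 3 by Dixon's ratio of gap to range at the 95% level, and chance alone gives about 1 in 20, or 2 of 40. For TGFA at P3, replicate 4 was highest, with a ratio of 1.00, at a log2 value of 7.09 against 7.07 in each of the others, a gap near the rounding of the values. For BTC at P3, replicate 3 was highest, with a ratio of 0.88, at 2.75 against 2.59 to 2.61.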

How the results depend on the processing

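Of 1080 log2 differences of the 10 genes under alternatives, those that changed direction were of comparisons that did not pass the test. These were EGFR at P7 against P3 (0.00 with quantile normalization), AREG at P7 against P0 (0.00 with a pseudocount of 0.1, 0.03 with quantile normalization and 0.02 with a shift to the same median), EREG at P15 against P7 (-0.02 with the median shift) and at P15 against P3 (0.07 with quantile normalization), BTC at P7 against P0 (0.00 with quantile normalization and 0.01 with the median shift) and EPGN at P7 against P3 (0.01 with a pseudocount of 0.1 and with quantile normalization). With 1 library left out, they ranged from -0.03 to 0.03 for EGFR at P7 against P3, from -0.06 to 0.08 for AREG at P7 against P0, from -0.02 to 0.08 for EREG at P15 against P7, from -0.06 to 0.03 for BTC at P7 against P0 and from -0.07 to 0.04 for EPGN at P7 against P3. The small steps of ERBB2 lost the threshold in 11 fits, at P3 against P0 without P0 replicate 4 (adjusted p = 0.067) or P3 replicate 1 (0.07), with no filter (0.056) and with the median shift (0.054), and at P7 against P0 without P0 replicate 1 (0.053) or 3 (0.091), without P7 replicate 1 (0.11) or 4 (0.11), with no filter (0.071), quantile normalization (0.068) or no variance trend (0.054), all from limma. Differences that passed only in an alternative were EREG at P7 against P3 without P7 replicate 3 (-0.11, limma adjusted p = 0.022) and at P15 against P7 with quantile normalization (0.11, 0.027), NRG1 at P7 against P3 without P3 replicate 2 (0.12, 0.046) or P7 replicate 2 (0.12, 0.048), and EPGN at P3 against P0 with a pseudocount of 0.1 (0.85, 0.017), without P3 replicate 2 (0.24, 0.03) or with no variance trend (0.18, 0.05 after rounding) and at P7 against P0 with a pseudocount of 0.1 (0.86, 0.018). With no fold threshold, 9 genes were called at P3 against P0 and 5 at P7 against P3, and 3 inhibitor genes were 2-fold calls at P15 against P0 with a pseudocount of 5, against 5. Replicate numbers in descriptions and titles disagree and no source pairs them. Correlations of the deviations of same-numbered libraries were -0.15 to 0.22, and a replicate block with either numbering left the counts of genes that passed at 9, 5, 9 and 10 (P3 against P0, P7 against P3, P15 against P7 and P15 against P0). The cause of these changes was not tested. Low counts limit EPGN before P15, ERBB3 at P3 and P7, and BTC at P15.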
